A study of Mus musculus with 12 samples.

Results

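The genes described here encode the mitochondrial respiratory chain and ATP synthase of the mouse, from both genomes of the cell. Members were taken by gene symbol from a protein-coding annotation: symbols that begin with Nduf followed by a, b, c, s or v, with Uqcr, with Cox4 to Cox8 or with Atp5, together with Sdha, Sdhb, Sdhc, Sdhd, Cycs and Cyc1, and, as a second group, the protein-coding mt- genes. Of the 28987 genes in the table, 108 met the rule, 95 encoded in the nucleus and 13 in the mitochondrial genome. The nuclear members comprised 38 subunits of complex I, 8 complex I assembly factors whose symbols begin with Ndufaf, 4 subunits of complex II, 9 of complex III, 18 of complex IV, 17 of ATP synthase (complex V) and the carrier cytochrome c. The mitochondrial members comprised 7 subunits of complex I, 1 of complex III, 3 of complex IV and 2 of complex V. Of the nuclear members, 90 reached 1 TPM (a share of a library's transcripts, corrected for transcript length and scaled to a fixed total) in enough libraries to be tested, and 76 were at 10 TPM or more in all 12 libraries. The 5 that stayed below 1 TPM in every library were Ndufa4l2, Cox7b2, Cox8b, Cox8c and Atp5g2, and the table lists Cox8c and Atp5g2 at 0 throughout. Whether the 0 of Atp5g2 is an absent transcript or a matter of annotation or mapping was not tested.

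Complex I takes electrons from NADH and complex II takes them from succinate, complex III passes them to cytochrome c, and complex IV hands them to oxygen. Complexes I, III and IV pump protons across the inner mitochondrial membrane, and complex V lets the protons back to make ATP. Complex II is encoded wholly in the nucleus and is also an enzyme of the tricarboxylic acid cycle, whereas the other complexes need subunits from both genomes. Mature neutrophils are known for few mitochondria and for drawing most of their ATP from glycolysis, while their dividing marrow precursors carry more.

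The 12 RNA sequencing libraries came from bone marrow of C57BL/6 mice and formed 6 groups of 2. Sorted Ly6G+ myeloid cells, so named for a surface marker of neutrophils, came from CBL/RUNX1 mutant and from wild type marrow. Haematopoietic stem and progenitor cells (HSPC, labelled HSCPs), enriched through CD117, the surface receptor encoded by Kit, came from CBL/RUNX1 mutant, RUNX1 mutant, CBL mutant and wild type marrow. Per the labels' protocols each library came from the marrow of an individual mouse and the mutant clone was sorted by FACS. The alleles, the way they were introduced and the age of the mice are not given in the sources used here.

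The deposited Runx1 and Cbl transcripts were higher in the mutants than in wild type. Runx1 was at 257 and 248 TPM in CBL/RUNX1 mutant HSPC and 170 and 45.3 TPM in RUNX1 mutant HSPC, against 12.7 and 11.3 TPM in wild type HSPC. Cbl was at 103 and 115 TPM in CBL/RUNX1 mutant HSPC and 73.7 and 81.3 TPM in CBL mutant HSPC, against 31.0 and 17.9 TPM in wild type HSPC. Wild type Ly6G+ cells carried more Ly6g than wild type HSPC (2017 and 2026 TPM against 482 and 504 TPM) and less Kit (8.93 and 13.3 TPM against 25.6 and 24.5 TPM). None of the HSPC libraries was free of neutrophil transcripts: the alarmins S100a8 and S100a9 together made up 8.11% and 9.54% of CBL/RUNX1 mutant, 13.3% and 27.0% of RUNX1 mutant, 26.9% and 21.5% of CBL mutant and 28.9% and 31.4% of wild type HSPC libraries. In marrow RNA of this kind, fewer cells of a type and less RNA per cell cannot be told apart. A single library stood apart from its replicate in each of 2 groups. Over all genes the SD of the difference between replicates, on the log2 scale, was 1.0 in CBL/RUNX1 mutant Ly6G+ cells and 0.709 in RUNX1 mutant HSPC, against 0.302 to 0.376 in the other groups. Replicate 1 of the CBL/RUNX1 mutant Ly6G+ cells held 705 TPM of 8 stem and progenitor markers, against 99.7 TPM in replicate 2. Of these, Kit, Cd34 and Flt3 were at 38.0, 195 and 215 TPM, against 5.89, 40.9 and 11.8 TPM in replicate 2. Gata2 went the other way, at 1.23 against 4.11 TPM. Of the monocyte and dendritic cell markers, Cd74 (1855 against 690 TPM) and H2-Aa (1069 against 368 TPM) were also higher in replicate 1, whereas Csf1r, Ccr2 and Ly6c2 were lower. Neutrophil transcripts were low in replicate 1. Ly6g was at 389 TPM, against 1448 TPM in replicate 2, below wild type HSPC but above CBL/RUNX1 mutant HSPC (25.2 and 14.2 TPM). S100a8 and S100a9 made up 7.23% of it, below every HSPC library, against 24.8% of replicate 2. The 11 neutrophil markers summed to 85543 TPM, against 311867 TPM in replicate 2. Replicate 1 of the RUNX1 mutant HSPC held 1145 TPM of 8 stem and progenitor markers, against 230 TPM in replicate 2. Read numbers are not given, so neither depth nor a counting interval is known, and the 2 libraries of a group set the precision.

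Respiratory chain transcripts were among the abundant ones of every library. The 95 nuclear members summed to 1.74% and 1.21% of CBL/RUNX1 mutant and 0.951% and 0.910% of wild type Ly6G+ libraries, to 3.05% and 3.27% of CBL/RUNX1 mutant, 2.20% and 1.89% of RUNX1 mutant and 1.94% and 2.16% of CBL mutant HSPC libraries, and to 1.78% and 1.82% of wild type HSPC libraries. Atp5b, the catalytic beta subunit of ATP synthase, was the highest nuclear member in all 12 libraries, from 627 TPM in a wild type Ly6G+ library to 3115 TPM in a CBL/RUNX1 mutant HSPC library. Levels differed by complex, given here as the median of the tested members in the wild type HSPC libraries. It stood at 239 and 269 TPM for complex III, 248 and 237 TPM for ATP synthase and 177 and 175 TPM for complex IV. For complex I subunits it was 109 and 108 TPM and for complex II 74.7 and 70.9 TPM. The complex I assembly factors, which act on the enzyme as it is built and are not part of it, had a median of 11.1 and 9.75 TPM in the same libraries. Cycs, which encodes cytochrome c, was low for a component of the chain, at 33.5 and 33.3 TPM. The median mitochondrially encoded complex IV subunit stood far above them, at 3664 and 3884 TPM.

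**Figure D1:**
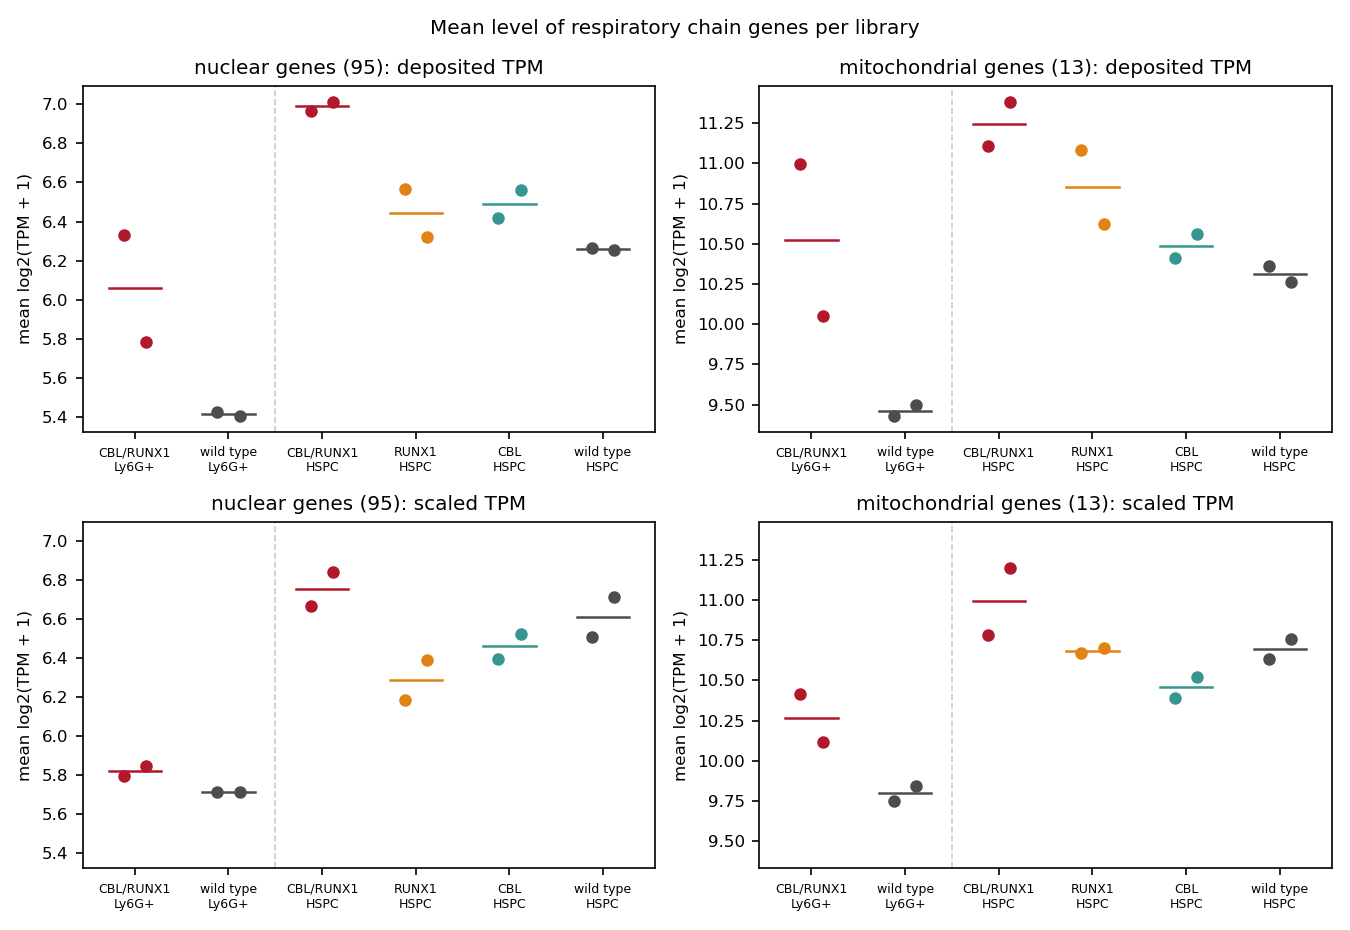
Mean log2(TPM + 1) of the 95 nuclear and the 13 mitochondrially encoded members in each library, as deposited (top) and after scaling between libraries (bottom), with a line at each group mean. The CBL/RUNX1 mutant HSPC libraries lie above the other HSPC libraries in deposited TPM and overlap them after scaling for the nuclear members, and the Ly6G+ libraries of each genotype lie below its HSPC libraries after scaling.

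Fold changes below are on the log2(TPM + 1) scale after trimmed-mean (TMM) scaling between libraries, and a gene is called when limma's adjusted p, over all genes tested, is under 0.05. The scaling matters for the mutants. With the deposited TPM left unscaled, the median of all genes moved by 0.56 in CBL/RUNX1 mutant, 0.45 in RUNX1 mutant and 0.33 in CBL mutant HSPC against wild type HSPC, and by 0.58 in CBL/RUNX1 mutant Ly6G+ cells against wild type Ly6G+ cells, all upwards. After scaling these medians lay between -0.04 and 0.05. Between the cell types the unscaled medians were -0.04 in wild type and 0.00 in CBL/RUNX1 mutant marrow.

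The comparison of wild type Ly6G+ cells with wild type HSPC asks how respiratory chain transcripts differ between mature myeloid cells and the progenitor fraction. Most nuclear members were lower in the Ly6G+ cells: 70 of 90 were called lower and none was called higher, where 22.9% of all 13059 genes tested were called lower and 16.9% higher. Their median log2 fold change was -0.97, against -0.08 over all genes. The 4 nuclear members with a positive value were Cox6a2, Cox7a2l, Ndufa12 and Atp5f1, none of them called. Markers of other cell types differed in the same comparison: 3 of 8 stem and progenitor markers were called lower, and 3 of 7 B and plasma cell, 3 of 6 T and NK cell and 3 of 5 monocyte and dendritic cell markers were called higher. Igkc, the most abundant of the 7 B and plasma cell markers, went the other way without a call. It was at 10211 and 9231 TPM in wild type Ly6G+ cells and 38636 and 40304 TPM in wild type HSPC. Jchain, also not called, was at 346 and 293 TPM in wild type Ly6G+ cells and 1204 and 1138 TPM in wild type HSPC. Of 11 neutrophil markers 3 were called higher and 2 lower, and of the T and NK cell markers 1 was called lower. For all of these lists, their part was not tested. The number of nuclear members called depended on single libraries: it was 33 without replicate 2 of the wild type HSPC, 44 without replicate 1 and 43 without replicate 2 of the wild type Ly6G+ cells, with shares of all genes called in either direction of 17.1%, 21.9% and 18.3%, against 39.8% with all libraries.

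**Figure D2:**
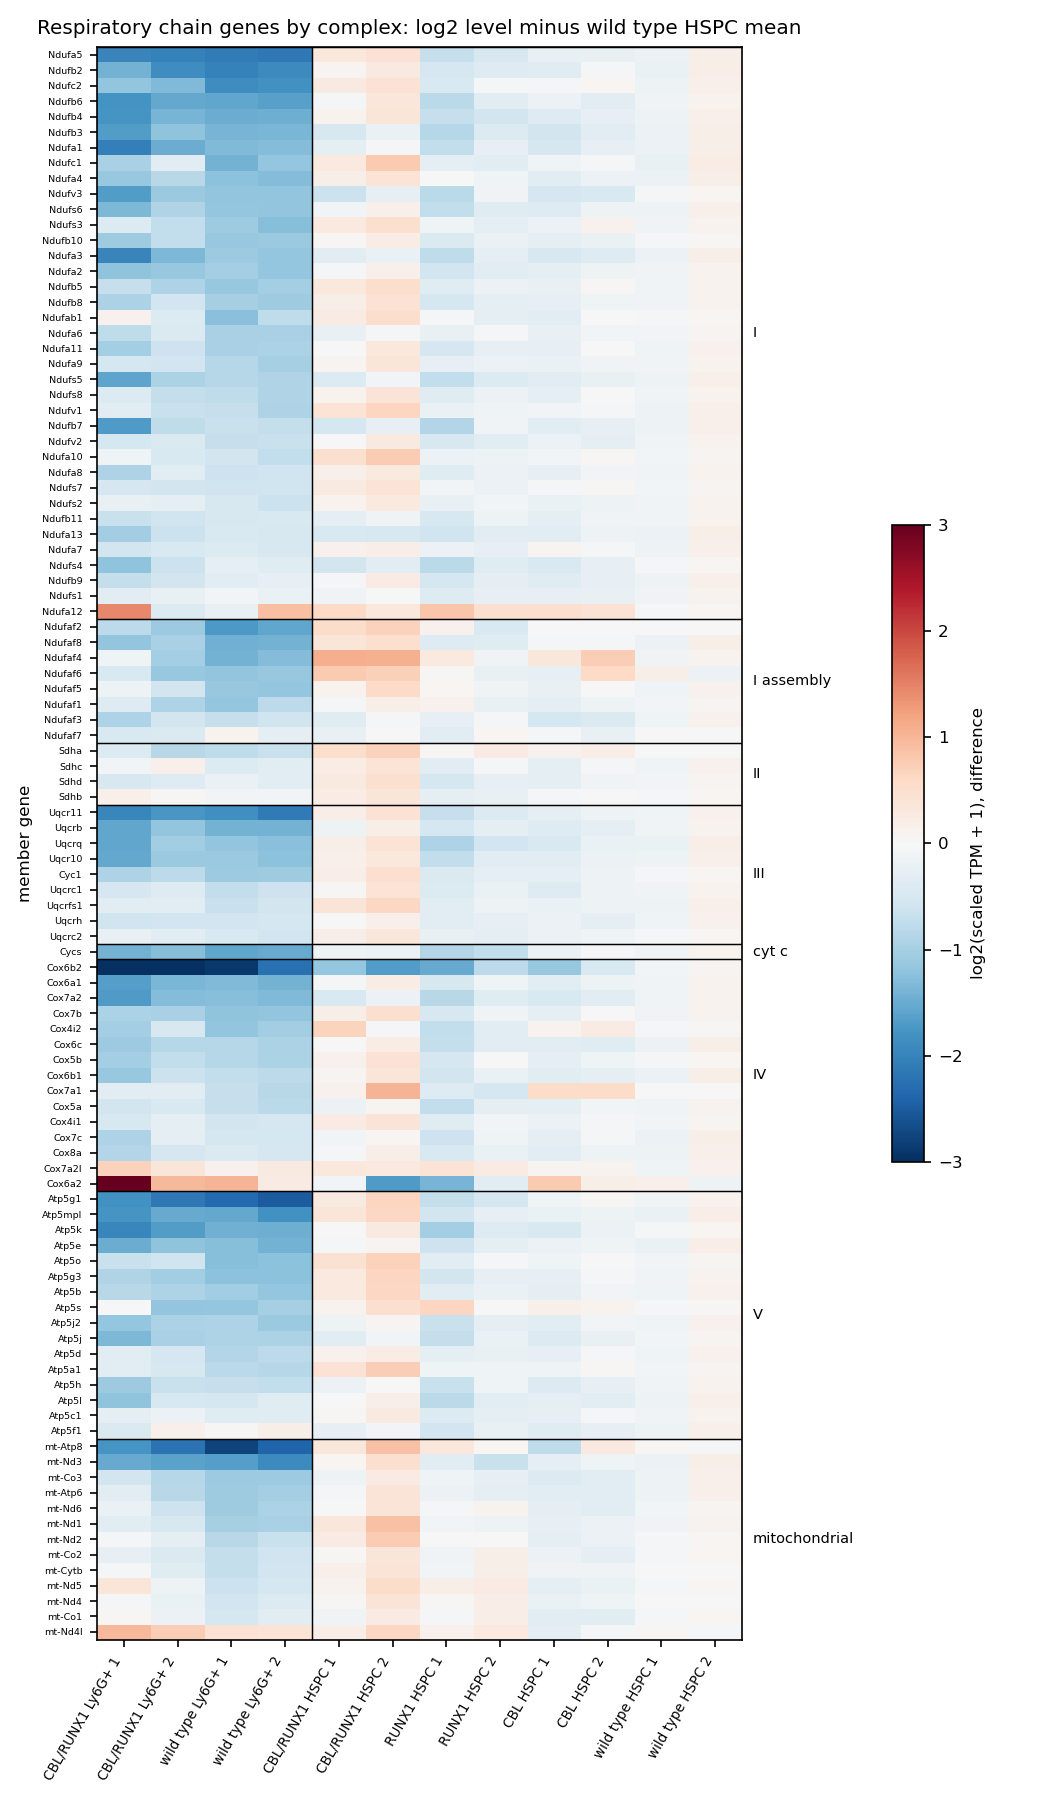
Log2(scaled TPM + 1) of each of 103 tested members in each library, minus the mean of the wild type HSPC libraries, with members ordered by complex and genome and colours ending at 3 in either direction. The Ly6G+ columns are mostly below wild type HSPC in every complex, with complex II the palest block among the nuclear members.

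Among complex I subunits, 29 of 37 were called lower in wild type Ly6G+ cells, with a median of -0.98. Ndufa5, an accessory subunit of the arm that protrudes into the matrix (ENSMUSG00000023089, chromosome 6, 24518666 to 24528013 of GRCm38, minus strand), had the largest change of them. It was at 30.7 and 29.5 TPM in wild type Ly6G+ cells, against 124 and 135 TPM in wild type HSPC. The libraries did not overlap, and the log2 fold change was -2.12 ± 0.16 (SE, adjusted p = 0.00032). Ndufb2 and Ndufc2, accessory subunits of the membrane arm, changed by -1.97 ± 0.21 (adjusted p = 0.000703) and -1.84 ± 0.19 (adjusted p = 0.000642). The 7 conserved core subunits encoded in the nucleus, which hold the flavin and the iron-sulphur clusters, had 6 called lower and a median of -0.68, against -1.05 over the 30 other subunits, a difference given without a test. Within the core, Ndufv1, which binds NADH and the flavin, was at 34.8 and 28.9 TPM in wild type Ly6G+ cells and 52.7 and 55.3 TPM in wild type HSPC, a log2 fold change of -0.80 ± 0.18 (adjusted p = 0.00906). Ndufs1, the largest iron-sulphur subunit, was at 27.8 and 25.2 TPM in wild type Ly6G+ cells and 28.7 and 28.1 TPM in wild type HSPC. Its log2 fold change of -0.14 ± 0.13 was not called (adjusted p = 0.421). Of the 8 assembly factors, 7 were called lower with a median of -1.16. Ndufaf2, an assembly factor and paralogue of the subunit Ndufa12, changed by -1.64 ± 0.20 (adjusted p = 0.00106), while Ndufaf7, a methyltransferase that modifies a core subunit, was the exception at -0.08.

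Complex II had the median closest to 0 of the 5 complexes. Sdha, the flavoprotein that oxidises succinate, was its only subunit called lower, at 76.2 and 79.9 TPM in wild type Ly6G+ cells and 132 and 116 TPM in wild type HSPC, a log2 fold change of -0.71 ± 0.18 (adjusted p = 0.0157). Sdhb, its iron-sulphur partner, was at 60.2 and 59.7 TPM in wild type Ly6G+ cells and 63.7 and 58.9 TPM in wild type HSPC. The Sdhb libraries overlapped in deposited TPM. After scaling, the Ly6G+ libraries lay just below the HSPC libraries, at 75.3 and 75.9 against 76.6 and 83.1 scaled TPM. The log2 fold change of Sdhb was -0.08 ± 0.13 (adjusted p = 0.67), a value that moved to 0.00 when scaled by relative log expression instead. The membrane anchors Sdhc and Sdhd had values of -0.36 and -0.26. The median over the 4 subunits was -0.31. As a share of all nuclear respiratory chain TPM, complex II made up 2.67% to 3.27% in the 4 Ly6G+ libraries and 1.75% to 2.28% in the 8 HSPC libraries.

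All 9 nuclear subunits of complex III were called lower, with a median of -1.08. Uqcr11, a small accessory subunit, was at 116 and 93.2 TPM in wild type Ly6G+ cells and 399 and 403 TPM in wild type HSPC, a log2 fold change of -1.99 ± 0.20 (adjusted p = 0.000642). Cyc1, the cytochrome c1 that reduces cytochrome c, changed by -1.08 ± 0.16 (adjusted p = 0.00182). The Rieske iron-sulphur protein Uqcrfs1 changed by -0.61, and the core proteins Uqcrc1 and Uqcrc2 by -0.68 and -0.52, all of them called. Cycs, which links complexes III and IV, was at 11.3 and 11.5 TPM in wild type Ly6G+ cells and 33.5 and 33.3 TPM in wild type HSPC, a log2 fold change of -1.53 ± 0.14 (adjusted p = 0.000513).

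For complex IV, 11 of 15 tested nuclear members were called lower, with a median of -0.77. Cox6a1, an accessory subunit, changed by -1.38 and Cox7a2 by -1.30 ± 0.22 (adjusted p = 0.00281). Ndufa4, named for complex I but since found with complex IV, is counted with complex I here and changed by -1.27. Cox4i1, the regulatory subunit that binds ATP, lay at the threshold with -0.53 ± 0.19 (adjusted p = 0.0497). Cox8a had -0.47 and was not called (adjusted p = 0.114).

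For ATP synthase, 12 of 16 tested nuclear members were called lower, with a median of -1.04. Atp5b was at 698 and 627 TPM in wild type Ly6G+ cells and 1357 and 1387 TPM in wild type HSPC, a log2 fold change of -1.10 ± 0.21 (adjusted p = 0.00485). Atp5a1, which encodes the alpha subunit of the same catalytic head, changed by -0.83 ± 0.17 (adjusted p = 0.00641). The largest change belonged to Atp5g1 (ENSMUSG00000006057, chromosome 11, 96068852 to 96075670 of GRCm38, minus strand), at 33.7 and 29.4 TPM in wild type Ly6G+ cells and 165 and 166 TPM in wild type HSPC, a log2 fold change of -2.41 ± 0.20 (adjusted p = 0.000372). Atp5g1, Atp5g2 and Atp5g3 encode the same mature protein, the subunit c that forms the rotating ring, behind different import sequences. Atp5g3 changed by -1.23 ± 0.20 (adjusted p = 0.00234), from a higher level, and was at 128 and 125 TPM in wild type Ly6G+ cells and 289 and 287 TPM in wild type HSPC. Atp5f1, which encodes the b subunit of the stalk that holds the head still, was at 154 and 167 TPM in wild type Ly6G+ cells and 140 and 150 TPM in wild type HSPC. Its log2 fold change of 0.10 ± 0.24 was not called (adjusted p = 0.767), and it was -0.062 without replicate 1 of the wild type HSPC.

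The ratio of Atp5g1 to Atp5g3 TPM separated the cell types in both genotypes that had Ly6G+ cells. It was 0.305 and 0.261 in CBL/RUNX1 mutant and 0.263 and 0.236 in wild type Ly6G+ libraries, against 0.477 to 0.619 in the 8 HSPC libraries. Because both transcripts give the same mature subunit, their upstream sequences are shown, as the 130 bases from RefSeq build GRCm38.p6 that end just before the start of the gene, taking whichever of the RefSeq and GENCODE starts lies further upstream. Capitals mark the letters CCAAT, the CCAAT box, or their complement ATTGG. The Atp5g1 stretch is chr11:96075671-96075800 and the Atp5g3 stretch chr2:73911327-73911456, both on the minus strand.
Atp5g1: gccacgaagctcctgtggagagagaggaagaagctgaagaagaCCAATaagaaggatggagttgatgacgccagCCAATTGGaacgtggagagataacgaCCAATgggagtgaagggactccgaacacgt
Atp5g3: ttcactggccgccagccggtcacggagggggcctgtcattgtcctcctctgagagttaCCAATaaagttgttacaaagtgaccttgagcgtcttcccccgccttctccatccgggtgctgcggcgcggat
The Atp5g1 stretch holds 4 matches, of which a pair overlaps on opposite strands, and the Atp5g3 stretch holds 1. The Atp5g1 stretch ends 39 bases before the RefSeq start and the Atp5g3 stretch 0 bases before it, so the positions compared differ. A match is a run of letters and not a measured binding site.

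The same comparison in mutant marrow, CBL/RUNX1 mutant Ly6G+ cells against CBL/RUNX1 mutant HSPC, used other libraries but the same fit and pooled spread. There, 71 of 90 nuclear members were called lower and 1 higher, where 16.4% of all genes were called lower and 12.4% higher, and the median log2 fold change was -0.99 against 0.00 over all genes. The 66 members called lower in both genotypes made up 94.3% of the 70 called in wild type and 93.0% of the 71 called in mutant marrow. Over all genes, the 1738 called lower in both made up 58.1% of the 2991 called lower in wild type and 81.3% of the 2137 in mutant marrow. By complex, 29 of 37 complex I subunits, 6 of 8 assembly factors, 2 of 4 complex II, 9 of 9 complex III, 11 of 15 complex IV and 13 of 16 ATP synthase members were called lower. Sdha was at 182 and 85.8 TPM in CBL/RUNX1 mutant Ly6G+ cells and 291 and 298 TPM in CBL/RUNX1 mutant HSPC, a log2 fold change of -1.23 ± 0.18 (adjusted p = 0.0025). Sdhb again was not called, with -0.20 ± 0.13 (adjusted p = 0.298). Ndufa5 changed by -2.37 ± 0.16 (adjusted p = 0.000204), Uqcr11 by -2.17 ± 0.20 (adjusted p = 0.00066), Atp5g1 by -2.43 ± 0.20 (adjusted p = 0.000417) and Cycs by -1.19 ± 0.14 (adjusted p = 0.00124). The Ly6G+ libraries here include replicate 1, which stood apart. Without it 67 nuclear members were called, and without replicate 2 of the CBL/RUNX1 mutant HSPC 32 were, where 50.1% and 8.47% of all genes were called in either direction, against 28.8% with all libraries. With no libraries beyond the 4 compared in the fit, no nuclear member was called, and 4 of 11830 genes (0.0338%) were.

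**Figure D3:**
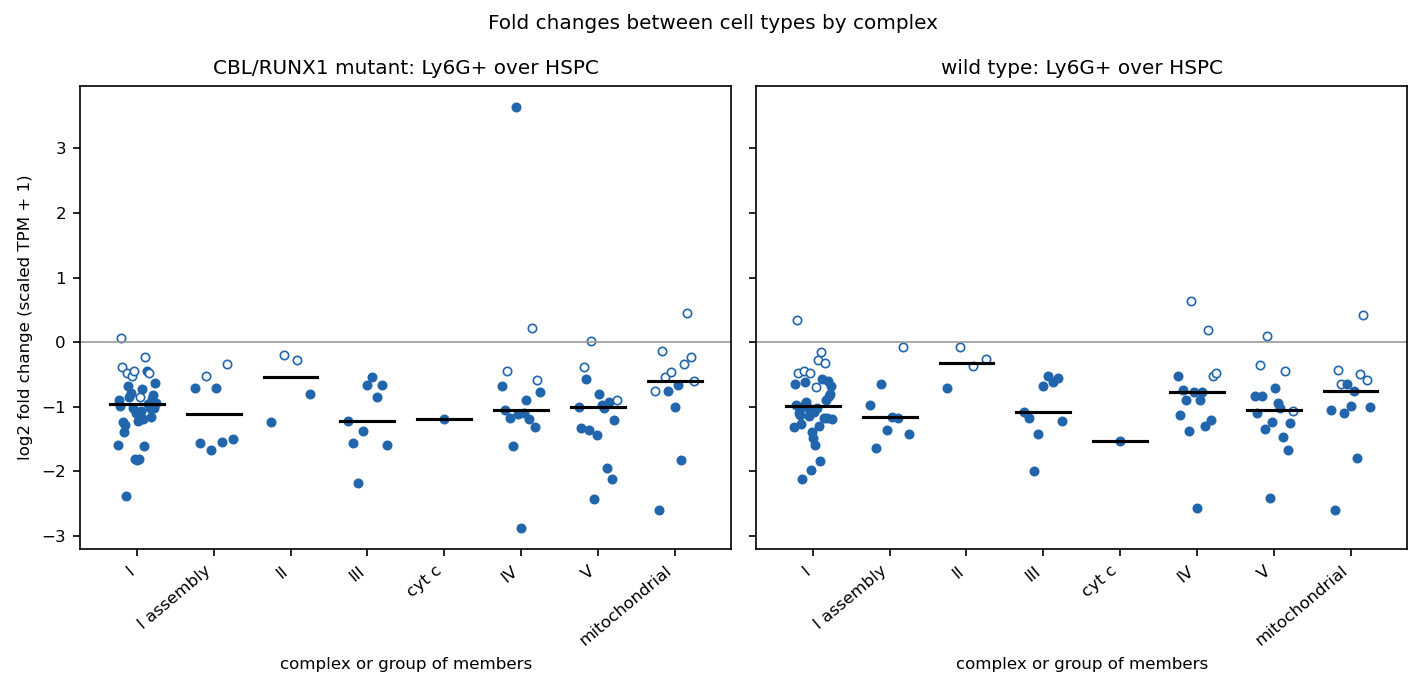
Log2 fold change of Ly6G+ cells over HSPC for each tested member, by complex and genome, in CBL/RUNX1 mutant and in wild type marrow, with called members filled, others open and a bar at each median. Medians lie near -1 for complexes I, III and V in both genotypes, and complex II lies closest to 0 among the nuclear members.

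The difference between the genotypes in this step was tested directly, as the CBL/RUNX1 mutant effect in Ly6G+ cells minus that in HSPC. No nuclear or mitochondrial member was called and none of the 103 tested had an unadjusted p under 0.05, where limma called 0.0689% of all genes and 9.91% had an unadjusted p under 0.05. The median was -0.09 for nuclear and 0.17 for mitochondrial members, against 0.06 over all genes. The nuclear members with the smallest p were Ndufa6 (0.51 ± 0.24, adjusted p = 0.543) and Sdhd (-0.53 ± 0.24, adjusted p = 0.513). Sdha had -0.53 ± 0.26 (adjusted p = 0.559).

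The comparison of CBL/RUNX1 mutant HSPC with wild type HSPC asks what the combined mutations do to these transcripts in progenitors, and its answer depended on how the libraries were scaled. In deposited TPM, both CBL/RUNX1 mutant HSPC libraries lay above all 6 other HSPC libraries for 75 of 90 nuclear members, where 23.9% of all genes did so. After scaling this held for 36 of 90, where 18.1% of all genes did so. With scaled values 3 nuclear members were called higher and 1 lower, where 4.64% and 6.79% of all 12318 genes were, and the median log2 fold change of the 90 was 0.22 against 0.02 over all genes. With unscaled values 71 were called higher, where 31.9% of all genes were, and the median was 0.83 against 0.56 over all genes. Marker transcripts differed between the same libraries: 7 of 11 neutrophil markers and 4 of 7 B and plasma cell markers were called lower. Of 8 stem and progenitor markers 1 was called higher and 1 lower, with a median of 0.99 against 0.02 over all genes. The part of these lists in the respiratory chain values was not tested. The 11 neutrophil markers summed to 94796 and 107576 TPM in CBL/RUNX1 mutant HSPC, against 324958 and 349778 TPM in wild type HSPC. Of them, Mpo and Elane went the other way in deposited TPM. Mpo was at 4796 and 5049 TPM in CBL/RUNX1 mutant HSPC and 2188 and 1867 TPM in wild type HSPC. Elane was at 3151 and 3708 TPM in CBL/RUNX1 mutant HSPC and 2450 and 2395 TPM in wild type HSPC.

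The 3 members called higher were an assembly factor, a complex I subunit and the catalytic subunit of complex II. Ndufaf4 (ENSMUSG00000028261, chromosome 4, 24898083 to 24905001 of GRCm38, plus strand), needed for early complex I assembly, was at 22.8 and 20.3 TPM in CBL/RUNX1 mutant HSPC, against 6.10 and 6.15 TPM in wild type HSPC. Its log2 fold change was 1.09 ± 0.20 (adjusted p = 0.0277). In deposited TPM the single mutants lay between, at 13.4 and 6.90 TPM in RUNX1 mutant and 10.5 and 14.4 TPM in CBL mutant HSPC, but after scaling a RUNX1 mutant library, at 7.29 scaled TPM, was below both wild type libraries, at 7.34 and 8.67 scaled TPM. Ndufa10, an accessory subunit of complex I (ENSMUSG00000026260, chromosome 1, 92439010 to 92473860 of GRCm38, minus strand), was at 69.7 and 76.5 TPM in CBL/RUNX1 mutant HSPC and 31.2 and 29.5 TPM in wild type HSPC, a log2 fold change of 0.62 ± 0.13 (adjusted p = 0.0357). Sdha (ENSMUSG00000021577, chromosome 13, 74322254 to 74350280 of GRCm38, minus strand) was at 291 and 298 TPM in CBL/RUNX1 mutant HSPC and 132 and 116 TPM in wild type HSPC, a log2 fold change of 0.61 ± 0.14 (adjusted p = 0.0387). In all 3 genes both mutant libraries were above both wild type libraries. The member called lower was Cox6b2, described with the isoforms below. Just outside the threshold were Atp5a1 (0.59 ± 0.15, adjusted p = 0.0541) and Ndufv1 (0.52 ± 0.15, adjusted p = 0.0627).

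These 4 calls rested on every wild type, CBL mutant and CBL/RUNX1 mutant HSPC library: leaving out any of the 6 left no nuclear member called, where between 0.187% and 1.86% of all genes remained called, while without replicate 1 of the RUNX1 mutant HSPC 12 were called (9 higher, 3 lower), where 36.2% of all genes were. Without replicate 2 of the RUNX1 mutant HSPC 12 were called as well, where 35.7% of all genes were. The log2 fold change stayed positive under every alternative tried, between 0.83 and 1.66 for Ndufaf4 and between 0.52 and 1.24 for Sdha. By complex, medians were 0.39 for assembly factors, 0.34 for complex II, 0.26 for complex III, 0.17 for complex I subunits, 0.16 for ATP synthase and 0.12 for complex IV, and Cycs had -0.16. All 4 complex II and all 9 complex III members had positive values, the lowest of them 0.00 for Uqcrb.

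**Figure D4:**
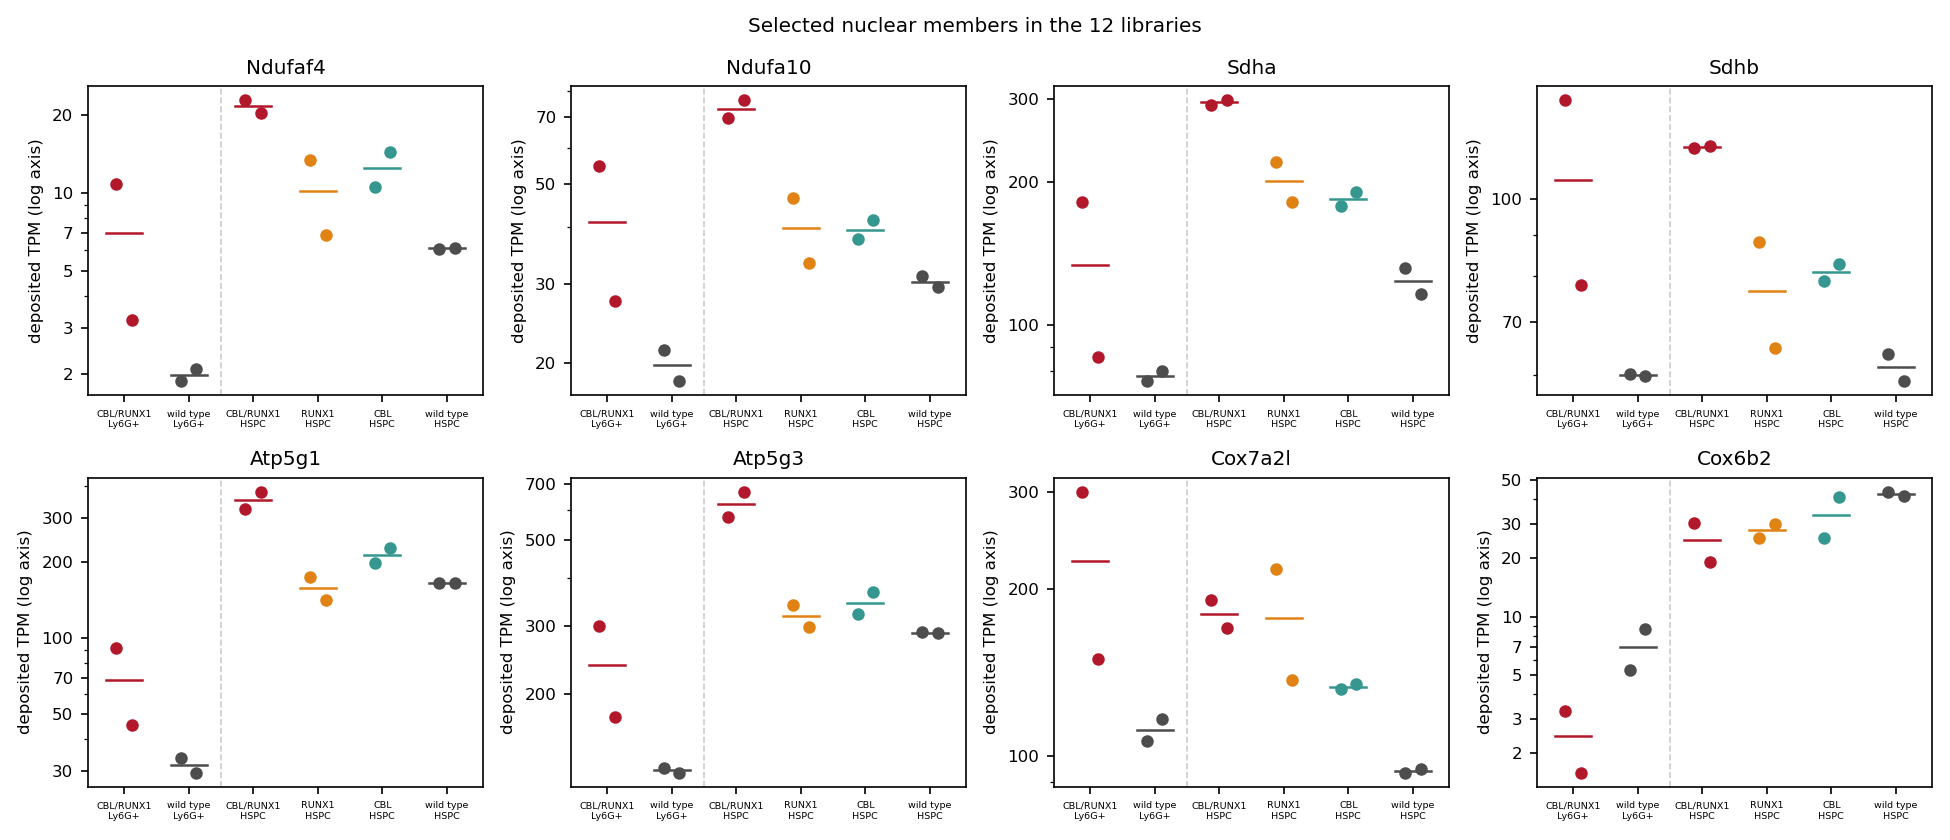
Deposited TPM of 8 members in each library on a log axis, with groups in the order CBL/RUNX1 mutant and wild type Ly6G+ cells, then CBL/RUNX1 mutant, RUNX1 mutant, CBL mutant and wild type HSPC. Ndufaf4, Ndufa10 and Sdha are highest in CBL/RUNX1 mutant HSPC and Cox6b2 is highest in wild type HSPC.

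The upstream sequences of Ndufaf4 and Sdha are shown because both were called higher and both hold letters of the palindrome that the transcription factor NRF1, a known activator of respiratory genes, prefers. Each is the 130 bases before the start, chosen as above, in GRCm38.p6 from RefSeq, with Ndufaf4 at chr4:24897953-24898082 on the plus strand and Sdha at chr13:74350281-74350410 on the minus strand. Capitals mark the looser NRF1 form, GCGC and GCGC with any 2 bases between them.
Ndufaf4: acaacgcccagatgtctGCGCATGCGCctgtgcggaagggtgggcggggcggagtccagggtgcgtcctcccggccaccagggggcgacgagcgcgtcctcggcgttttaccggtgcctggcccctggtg
Sdha: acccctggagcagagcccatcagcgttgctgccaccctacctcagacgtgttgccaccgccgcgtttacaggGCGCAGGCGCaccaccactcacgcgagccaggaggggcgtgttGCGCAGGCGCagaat
The Ndufaf4 stretch holds 1 match, which is the full NRF1 core with AT in the middle, and the Sdha stretch holds 2 matches of the looser form. Ndufa10, also called higher, has no match in its 130 bases. That stretch ends 102 bases before the RefSeq start, against 40 for Sdha and 0 for Ndufaf4, so the positions compared differ. Nrf1 itself was at 29.4 and 29.0 TPM in CBL/RUNX1 mutant HSPC and 22.0 and 20.0 TPM in wild type HSPC, a scaled log2 fold change of -0.15 that was not called (adjusted p = 0.463). Ndufaf4 and Sdha were chosen for display with their matches known, and the part of NRF1 in their levels was not tested.

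RefSeq windows from 250 bases before to 50 after the start were matched by Ensembl identifier or symbol for 75 of the 95 nuclear members, giving 80 windows. On both strands, the full NRF1 core occurred in 8.75% of member windows and in 0.971% of all 32851 windows, and the looser form, which includes it, in 27.5% and 6.23%. CCGGAAG, a core bound by ETS factors such as GABP, occurred in 22.5% of member windows and 8.86% of all windows. AAGATGG, a core of YY1, occurred in 13.75% and 6.34%. CCAAT occurred in 43.75% and 37.4%, and TATAAA, the TATA box, in 10% and 13.6%. Among the 21263 windows of protein-coding genes alone the shares were 1.33% for the full NRF1 core, 8.57% for the looser form and 11.6% for CCGGAAG.

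Against wild type HSPC, neither single mutant had a called member. In RUNX1 mutant HSPC 0 of 90 nuclear and 0 of 13 mitochondrial members were called by limma, where 0.0487% of all genes were. Of the 90 nuclear members 31 had an unadjusted p under 0.05, as had 16.6% of all genes. The median nuclear log2 fold change was -0.35 after scaling and 0.20 with unscaled TPM, so its direction depended on the scaling. Cycs had the smallest p, at 30.8 and 24.5 TPM in RUNX1 mutant HSPC and 33.5 and 33.3 TPM in wild type HSPC, with a scaled log2 fold change of -0.81 ± 0.13 (adjusted p = 0.138). The complex I subunit Ndufb4 had -0.62 ± 0.15 (adjusted p = 0.193), and Ndufa12 was the highest, at 0.66 ± 0.21 (adjusted p = 0.244). Without replicate 2, the library with fewer progenitor transcripts, 31 nuclear members were called lower and 2 higher, where 29.6% of all genes were called in either direction. In CBL mutant HSPC 0 of 90 nuclear and 0 of 13 mitochondrial members were called by limma, where 0.56% of all genes were, and 3 nuclear members had an unadjusted p under 0.05, as had 10.8% of all genes. The median was -0.18 after scaling and 0.23 without, again in opposite directions. The smallest p of each direction belonged to the assembly factors Ndufaf4 (0.54 ± 0.20, adjusted p = 0.413) and Ndufaf3 (-0.48 ± 0.16, adjusted p = 0.368). The 3 mutant groups share the wild type libraries, so their values are given side by side only.

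In CBL/RUNX1 mutant Ly6G+ cells against wild type Ly6G+ cells, limma called 0 of 89 nuclear and 0 of 13 mitochondrial members, where 0 of 11920 genes were called at all (0%) and 1677 (14.1%) had an unadjusted p under 0.05. In simulated data this fit recovered 0% of 200 genes changed by a log2 value of 1, so its lack of calls cannot show a lack of change. The median nuclear log2 fold change was 0.13, against 0.05 over all genes, and 2 nuclear members had an unadjusted p under 0.05. Cox6b2 had the smallest, at -1.72 ± 0.35 (adjusted p = 0.28), and the assembly factor Ndufaf2 the next, at 0.71 ± 0.24 (adjusted p = 0.343). Replicate 1 stood apart, and over the 90 nuclear members the SD of the log2 difference between replicates was 0.577, against 0.206 in wild type Ly6G+ cells. Ndufaf4 was at 10.8 TPM in that library and 3.24 TPM in replicate 2, against 1.88 and 2.09 TPM in wild type Ly6G+ cells. Without replicate 2, 20 nuclear members were called higher and 19 lower, where 61.4% of all genes were called, whereas without replicate 1, 2 were called higher and 1 lower, where 10.8% of all genes were.

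The 13 mitochondrially encoded members are core subunits encoded on long transcripts of a circular genome, 12 of them on its plus strand and mt-Nd6 on its minus strand. Their TPM summed to 3.96% and 1.97% of CBL/RUNX1 mutant and 1.34% and 1.39% of wild type Ly6G+ libraries, to 3.96% and 4.73% of CBL/RUNX1 mutant, 3.89% and 2.83% of RUNX1 mutant and 2.56% and 2.72% of CBL mutant HSPC libraries, and to 2.41% and 2.35% of wild type HSPC libraries. The ratio of mitochondrial to nuclear sums was 1.41 and 1.53 in wild type Ly6G+ libraries and 1.36 and 1.29 in wild type HSPC libraries. It was 1.30 and 1.45 in CBL/RUNX1 mutant and 1.32 and 1.26 in CBL mutant HSPC libraries. It was highest in both libraries that stood apart, at 2.28 in replicate 1 of the CBL/RUNX1 mutant Ly6G+ cells, against 1.63 in replicate 2, and at 1.77 in replicate 1 of the RUNX1 mutant HSPC, against 1.49 in replicate 2. By complex the ratio differed more than by sample: it ran from 0.509 to 1.27 for complex III, 0.607 to 1.08 for ATP synthase, 1.26 to 2.36 for complex I and 2.53 to 4.51 for complex IV over the 12 libraries.

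In wild type Ly6G+ cells 8 of 13 mitochondrial members were called lower than in wild type HSPC, with a median of -0.75, beside the background of 22.9% given above. They included mt-Cytb, the only complex III subunit from this genome (-0.64, adjusted p = 0.0369), and mt-Atp6, the channel subunit of ATP synthase (-1.04, adjusted p = 0.0148). mt-Co1, the catalytic subunit of complex IV, was at 2363 and 2693 TPM in wild type Ly6G+ cells and 3424 and 3158 TPM in wild type HSPC, a log2 fold change of -0.43 that was not called (adjusted p = 0.175). Of the 13, 5 were called lower in CBL/RUNX1 mutant Ly6G+ cells than in CBL/RUNX1 mutant HSPC, and all 5 were among the 8. Of all genes 16.4% were called lower there, and the median of the 13 was -0.61 against 0.00 over all genes. These counts moved with single libraries. In wild type marrow they were 2 without HSPC replicate 2, 2 without Ly6G+ replicate 1 and 3 without Ly6G+ replicate 2, where 17.1%, 21.9% and 18.3% of all genes were called. In mutant marrow they were 2 without HSPC replicate 2 and 9 without Ly6G+ replicate 1, where 8.47% and 50.1% of all genes were called. Between CBL/RUNX1 mutant HSPC and wild type HSPC none of the 13 was called, where 4.64% of all genes were called higher and 6.79% lower. Of the 13, 2 had an unadjusted p under 0.05 (34.1% of all genes had). All 13 had positive values, with a median of 0.27 after scaling, against 0.02 over all genes. Without scaling the median was 0.90, against 0.56 over all genes, and 12 of 13 were called higher, as were 31.9% of all genes. mt-Nd1 had the smallest adjusted p after scaling, 0.0859, at 2420 and 3216 TPM in CBL/RUNX1 mutant HSPC and 1197 and 1166 TPM in wild type HSPC.

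The make-up of the mitochondrial transcripts, free of scaling between libraries, differed between the cell types. mt-Nd4l made up 6.63% to 7.12% of the mitochondrial TPM in the 4 Ly6G+ libraries and 2.61% to 3.62% in the 8 HSPC libraries. mt-Nd3 made up 5.04% to 6.83% in Ly6G+ and 7.68% to 12.7% in HSPC libraries, and mt-Atp8 0.696% to 0.928% in Ly6G+ and 1.90% to 3.77% in HSPC libraries. None of these ranges overlapped between the cell types. mt-Co1 likewise made up 18.0% to 19.7% in Ly6G+ and 12.5% to 17% in HSPC libraries. By narrower margins, mt-Nd4 made up 3.27% to 3.58% in Ly6G+ and 2.56% to 3.24% in HSPC libraries. mt-Co3 made up 13.3% to 14.1% in Ly6G+ and 14.2% to 17.1% in HSPC libraries. The ranges of the remaining members overlapped.

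**Figure D5:**
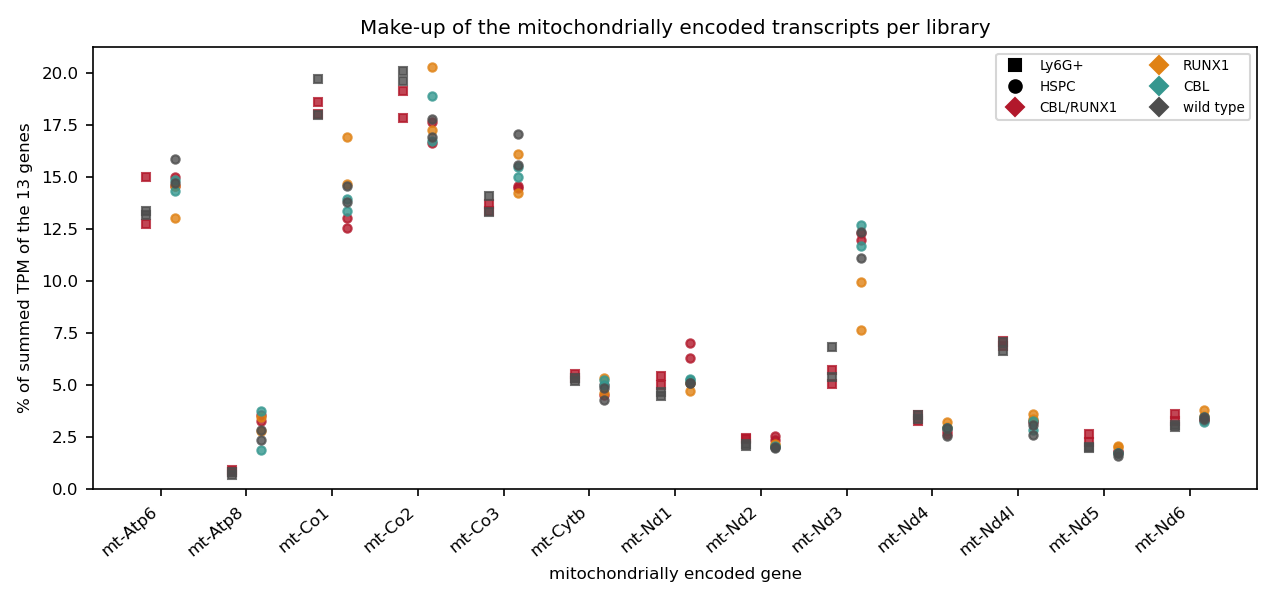
Share of each of the 13 mitochondrially encoded genes in their summed TPM, by library, with squares for Ly6G+ and circles for HSPC libraries. mt-Nd4l, mt-Nd4 and mt-Co1 are higher and mt-Nd3, mt-Atp8 and mt-Co3 lower in all Ly6G+ libraries than in all HSPC libraries.

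The TPM assigned to overlapping neighbours on the same transcript moved apart. mt-Atp8 shares 43 bases with mt-Atp6, and the ratio of their TPM was 0.0521 to 0.0659 in Ly6G+ libraries and 0.128 to 0.263 in HSPC libraries. mt-Nd4l shares 7 bases with mt-Nd4, and that ratio was 1.85 to 2.11 in Ly6G+ libraries and 0.961 to 1.24 in HSPC libraries. mt-Atp8 was at 91.2 and 116 TPM in wild type Ly6G+ cells and 674 and 543 TPM in wild type HSPC, a log2 fold change of -2.59 ± 0.36 (adjusted p = 0.00146). mt-Nd4l was at 926 and 904 TPM in wild type Ly6G+ cells and 731 and 597 TPM in wild type HSPC, a log2 fold change of 0.42 ± 0.22 that was not called (adjusted p = 0.151). mt-Nd3 was at 895 and 736 TPM in wild type Ly6G+ cells and 2617 and 2829 TPM in wild type HSPC, a log2 fold change of -1.79 ± 0.25 (adjusted p = 0.00154). At 204, 297 and 348 bases, mt-Atp8, mt-Nd4l and mt-Nd3 are the shortest of the 13. How reads shared by overlapping genes were divided is not given in the sources used here. The part of length or overlap in these ratios and fold changes was not tested. They describe TPM as assigned to each gene and not measured levels of separate messages.

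Several complex IV subunits exist as alternative isoforms, and their proportions differed between groups. Cox6b2, described in testis, accompanies the widespread Cox6b1, which links the monomers of the complex IV dimer. Cox6b2 (ENSMUSG00000051811, chromosome 7, 4751792 to 4753094 of GRCm38, minus strand) was at 5.33 and 8.62 TPM in wild type Ly6G+ cells and 43.9 and 41.6 TPM in wild type HSPC, a log2 fold change of -2.56 ± 0.34 (adjusted p = 0.00126). It was at 3.29 and 1.58 TPM in CBL/RUNX1 mutant Ly6G+ cells and 30.4 and 19.2 TPM in CBL/RUNX1 mutant HSPC, a log2 fold change of -2.87 ± 0.34 (adjusted p = 0.00127). It was also called lower in CBL/RUNX1 mutant than in wild type HSPC, by -1.41 ± 0.31 (adjusted p = 0.038), but not with unscaled TPM, where the value was -0.80. Cox6b1 was at 748 and 824 TPM in CBL/RUNX1 mutant HSPC and 419 and 452 TPM in wild type HSPC. As a share of both transcripts, which needs no scaling, Cox6b2 made up 0.843% and 0.458% in CBL/RUNX1 mutant and 1.94% and 3.24% in wild type Ly6G+ cells, 3.91% and 2.27% in CBL/RUNX1 mutant, 4.68% and 6.00% in RUNX1 mutant and 5.19% and 7.90% in CBL mutant HSPC, and 9.48% and 8.43% in wild type HSPC. Each mutant HSPC library was below both wild type HSPC libraries. The upstream stretches of both isoforms are shown for comparison, Cox6b2 at chr7:4753095-4753224 and Cox6b1 at chr7:30626152-30626281, both on the minus strand of GRCm38.p6 from RefSeq and 130 bases long. Capitals mark the CCAAT box or its complement.
Cox6b2: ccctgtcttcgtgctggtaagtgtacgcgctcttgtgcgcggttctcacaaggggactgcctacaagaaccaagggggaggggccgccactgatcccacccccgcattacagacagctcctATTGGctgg
Cox6b1: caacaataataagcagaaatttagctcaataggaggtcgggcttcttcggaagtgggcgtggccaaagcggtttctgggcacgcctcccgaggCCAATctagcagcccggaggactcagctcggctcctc
Each stretch holds 1 match, on opposite strands, and neither holds the NRF1 form. The Cox6b1 stretch ends 37 bases before the RefSeq start and the Cox6b2 stretch 0 bases before it.

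Cox7a2l is a relative of Cox7a2, a subunit of complex IV, which was called lower in wild type Ly6G+ cells. Cox7a2l was at 107 and 116 TPM in wild type Ly6G+ cells and 93.4 and 94.6 TPM in wild type HSPC, a log2 fold change of 0.20 ± 0.18 that was not called (adjusted p = 0.4). Cox7a2 was at 75.1 and 71.7 TPM in wild type Ly6G+ cells and 177 and 175 TPM in wild type HSPC. Cox7a2l thus made up 74.2% and 63.0% of both in CBL/RUNX1 mutant and 58.7% and 61.9% in wild type Ly6G+ cells, 47.8% and 42.5% in CBL/RUNX1 mutant, 55.9% and 44.7% in RUNX1 mutant and 43.8% and 41.9% in CBL mutant HSPC, and 34.6% and 35.1% in wild type HSPC. All Ly6G+ libraries exceeded all HSPC libraries, and all mutant HSPC libraries exceeded the wild type HSPC libraries.

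The heart and skeletal muscle isoforms were low, with a single exception. Cox7a1 made up 2.36% to 6.75% of Cox7a1 and Cox7a2 together, and Cox4i2, an isoform known from lung and from low oxygen, at most 0.385% of Cox4i2 and Cox4i1. Cox6a2 was at 123 TPM in replicate 1 of the CBL/RUNX1 mutant Ly6G+ cells and 5.72 TPM in replicate 2, and its highest value in the other 10 libraries was 5.25 TPM. It was the only nuclear member called higher in CBL/RUNX1 mutant Ly6G+ cells than in CBL/RUNX1 mutant HSPC, at 3.64 ± 1.03 (adjusted p = 0.0306). Without replicate 1 the value was 1.83 and was not called.

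Further genes that build or serve the chain were examined as lists of general knowledge. In wild type Ly6G+ cells against wild type HSPC, 17 of 36 assembly factors outside the symbol rule were called lower and 3 higher, with a median of -0.55, beside shares of all genes of 22.9% lower and 16.9% higher and an all-gene median of -0.08. Uqcc2, a complex III assembly factor, was at 24.6 and 25 TPM in wild type Ly6G+ cells and 90.3 and 111 TPM in wild type HSPC (-2.02 ± 0.22, adjusted p = 0.000714). Surf1, a complex IV assembly factor, went the other way, at 271 and 101 TPM in wild type Ly6G+ cells and 39.2 and 38.1 TPM in wild type HSPC (2.03 ± 0.39, adjusted p = 0.00513). Of 21 genes that copy and express the mitochondrial genome, 11 were called lower and 1 higher, with a median of -0.88. Lrpprc and Slirp, whose products bind together and stabilise mitochondrial messenger RNA, changed by -0.98 and -1.12. Of 13 tricarboxylic acid cycle genes, 8 were called lower and none higher, with a median of -0.71, led by Idh3a, a subunit of isocitrate dehydrogenase (-1.72 ± 0.20, adjusted p = 0.000906). The 9 regulators tested had a median of 0.07 and split: Myc (-2.39 ± 0.46, adjusted p = 0.00498) and the coactivator Pprc1 (-1.83 ± 0.29, adjusted p = 0.0022) were called lower, and the nuclear receptor Esrra higher (0.60 ± 0.18, adjusted p = 0.0282).

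In CBL/RUNX1 mutant Ly6G+ cells against CBL/RUNX1 mutant HSPC, 15 of 36 assembly factors, 5 of 21 mitochondrial genome genes, 6 of 13 cycle genes and 2 of 9 regulators were called lower and none higher, beside 16.4% lower and 12.4% higher over all genes, so the shares of the genome genes and regulators lay near that background. Against wild type HSPC, CBL/RUNX1 mutant HSPC had 3 of 36 assembly factors called higher and 2 lower, shares near the 4.64% and 6.79% of all genes. Coa7, a complex IV assembly factor, was at 27.0 and 22.3 TPM in CBL/RUNX1 mutant HSPC and 6.2 and 7.91 TPM in wild type HSPC (1.09 ± 0.19, adjusted p = 0.0239). Ecsit, a complex I assembly factor, was at 9.48 and 11 TPM in CBL/RUNX1 mutant HSPC and 3.05 and 1.95 TPM in wild type HSPC (1.2 ± 0.23, adjusted p = 0.0281). Lrpprc was the only mitochondrial genome gene called (0.68 ± 0.15, adjusted p = 0.0358), and Ppargc1b, which encodes the coactivator PGC-1beta, the only regulator (1.45 ± 0.28, adjusted p = 0.0287), of 21 and 9 tested. Ppargc1b was low throughout, at 5.80 and 4.41 TPM in CBL/RUNX1 mutant HSPC and 0.718 and 0.698 TPM in wild type HSPC. Of the cycle genes, Suclg2, Idh3a and Fh1 were called higher, at 0.98, 0.62 and 0.47, and none lower. None of these 4 lists had a called gene in CBL mutant or RUNX1 mutant HSPC against wild type, in CBL/RUNX1 mutant against wild type Ly6G+ cells, or in the difference between cell types, by limma.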

How the data were processed

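The deposited table holds TPM for 28987 Ensembl genes in 12 libraries, per the values: they are not whole numbers and the libraries sum to between 933370 and 981994. Per the submitters' processing notes the authors used bcl2fastq, CASAVA 1.8 and kallisto with build mm10. The kallisto version, its annotation and how transcripts were summed to genes or reads divided between near-identical sequences (the Atp5g genes, nuclear copies of mitochondrial genes, overlapping genes) are not given in the sources used here. Symbols and coordinates came from GENCODE vM21 on GRCm38 (the same assembly as mm10), and 27458 identifiers (94.7%) had a symbol. Promoter sequences came from RefSeq on GRCm38.p6.

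TPM of all 12 libraries were scaled by unweighted TMM factors (trim 0.3 for log ratios, 0.05 for levels). Genes with at least 1 TPM in at least 2 libraries of a fit were tested by limma 3.58.1 (R version 4.3.3), with log2(TPM + 1) as response, trend and robust moderation, two-sided, with Benjamini-Hochberg adjustment over all genes. The added 1 understates changes of low genes. Comparisons among HSPC used the 8 HSPC libraries (4 residual degrees of freedom), those within Ly6G+ cells 4 libraries (2), and those between cell types and their difference all 12 (6), so each SE pools the spread of the fit's groups. The scripts were tested on simulated data in which 200 genes changed by a log2 value of 1. The share of these recovered was 41% for CBL/RUNX1 mutant against wild type HSPC and 18% for wild type Ly6G+ cells against wild type HSPC. It was 0% for CBL/RUNX1 mutant against wild type Ly6G+ cells. The members and gene lists were chosen with earlier results of these data known.

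Named were catalytic, carrier, isoform and mitochondrially encoded members, the 4 called members of largest change upwards and downwards, and, failing calls, the 2 of lowest p. Members and list genes chosen for description with their values known were Uqcr11, Ndufc2, Ndufb2, Ndufaf2, Ndufaf7, Uqcrc2, Atp5g3, Atp5f1, Sdhc, Sdhd and genes of the other lists. Alternatives were unscaled TPM and relative log expression (RLE) scaling, no filter and a filter of 5 TPM, pseudocounts of 0.1 and 5, a replicate block, fits restricted to the compared groups or widened to 12 libraries, testing without haemoglobin and mitochondrially encoded genes, and omission of single libraries. After the data were seen, leaving out both libraries that stand apart was added.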

Additional observations from a re-analysis of the deposited data

How the results depend on the processing

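Counts of called members moved with the settings; the values of the report stand in parentheses, and the percentages are shares of all genes called in the same fit. Nuclear members called in CBL/RUNX1 mutant against wild type HSPC (4) numbered 71 without scaling (35.3%), 0 without the filter (2.11%), 0 with all 12 libraries in the fit (1.78%), 15 with only the compared groups (39.7%), 11 with the replicate block (12.2%) and 12 without both libraries that stand apart (36.1%), so apart from the unscaled fit the members' share was at or below that of all genes; mitochondrial members (0) numbered 12 without scaling, 1 with only the compared groups and 1 without both. Ndufaf4, Ndufa10, Sdha and Cox6b2 each lost the call without the filter and with all 12 libraries in the fit. In CBL/RUNX1 mutant against wild type Ly6G+ cells (0 nuclear) limma called 1 with all 12 libraries in the fit (8.03%) and 3 without both (10%). In wild type Ly6G+ cells against HSPC (8 mitochondrial) the counts were 2 without scaling (24.3%), 13 with only the compared groups (71.2%) and 13 without both (65.2%). In CBL/RUNX1 mutant Ly6G+ cells against HSPC the nuclear count (72) was 0 with only the compared groups (0.0338%), and the mitochondrial count (5) was 2 without scaling (18.7%), 3 with RLE scaling (28.7%), 3 without the filter (14.9%), 0 with only the compared groups and 9 without both (60.9%). With only the compared groups CBL mutant HSPC had 1 nuclear call (0; 7.87%), and without both libraries the difference between cell types had 1 (0; 7.27%).

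Leaving out each library in turn gave nuclear and mitochondrial counts of 0 to 0 and 0 to 0 for CBL mutant HSPC, 0 to 33 and 0 to 0 for RUNX1 mutant HSPC, 0 to 12 and 0 to 1 for CBL/RUNX1 mutant HSPC, 0 to 39 and 0 to 12 for CBL/RUNX1 mutant Ly6G+ cells, 33 to 77 and 2 to 11 for wild type Ly6G+ cells against HSPC, 32 to 73 and 2 to 9 for the same in mutant marrow, and 0 to 1 and 0 to 0 for the difference. Of the values of named members under all alternatives, 1342 kept direction and side of the threshold, 113 lost the call, 36 gained one and 3 reversed: in wild type Ly6G+ cells against HSPC, Ndufaf7 ranged from -0.27 to 0.11 on leaving out single libraries (positive without Ly6G+ replicate 2), Atp5f1 from -0.062 to 0.26 (negative without HSPC replicate 1), and Sdhb was 0.0002 with RLE scaling. The causes were not tested. Replicate numbers were not treated as pairs: deviations of same-numbered libraries correlated between -0.0165 and 0.463, over 0.1 in 6 of 15 pairs of groups and not in every pair. No other count moved by over 1.5 times under the block. A group left with 1 library is assumed to vary like the others. Depth is unknown, so counting error cannot be given.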
